A study of Mus musculus with 2 samples.

Results

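Known target genes of p53 were examined in the accessible chromatin of 1 untreated mouse lymphoma, T6: Cdkn1a, Mdm2, Ccng1, Bax, Pmaip1 and Btg2. The members are the DNaseI sites that overlap the mm9 span of one of these 6 genes extended by 25 kb on each side. The rule used gene positions and no measured value. It found 46 sites of the 53593 in the list, with 3 to 11 sites per gene. The tumour came from an Eμ-myc mouse of strain C57/Bl6, in which an antibody heavy chain enhancer drives Myc in B cells. Its genotype was Arf-/- Trp53+/+, so that Arf, which restrains Mdm2, was missing and Trp53, the gene of p53, was intact. Cells were pressed out of lymph nodes through a strainer and were not purified, so other lymph node cells could be present. B cell markers were not analysed here, since their mm9 positions were not used. The series has 2 libraries of this tumour, DNaseI and input, of which the DNaseI list was analysed.

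p53 is a transcription factor that stress such as DNA damage or oncogene activity stabilises. It binds a response element made of a pair of adjacent or nearly adjacent half-sites of 10 letters, and its targets halt the cell cycle, start apoptosis or feed back on p53 itself. DNaseI cuts where nucleosomes are absent or displaced, so a listed site marks chromatin that was open enough to be called. The list gives a position and a width for each site and no signal. Neither p53 binding nor RNA was measured in this series, so the sites describe the chromatin of the 6 genes in untreated cells and not their activity. With 1 library there was no replicate and no test between groups. Intervals below are exact Poisson intervals at 95%, or order statistics for medians, and cover counting error only. They treat sites as independent, although sites cluster in the genome, and are not error ranges between samples.

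Start sequences from RefSeq (build GRCm38.p6) are shown first because the results turn on which starts had a listed site near them and on where the p53 letters lie. The first 2 are the 250 bases before each of the RefSeq starts of Cdkn1a. The upstream start is taken as that of the rule's span, which was not tested in mm9. In the first, capitals mark a p53 element, and in the second, GC boxes (GGGCGG, either strand).
Cdkn1a upstream start (chr17:29090729-29090978, + strand): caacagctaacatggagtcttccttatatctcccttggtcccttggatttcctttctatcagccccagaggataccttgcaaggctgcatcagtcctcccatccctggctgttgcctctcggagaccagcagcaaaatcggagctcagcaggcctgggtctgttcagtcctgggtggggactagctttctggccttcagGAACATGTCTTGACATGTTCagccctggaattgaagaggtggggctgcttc
Cdkn1a downstream start (chr17:29093519-29093768, + strand): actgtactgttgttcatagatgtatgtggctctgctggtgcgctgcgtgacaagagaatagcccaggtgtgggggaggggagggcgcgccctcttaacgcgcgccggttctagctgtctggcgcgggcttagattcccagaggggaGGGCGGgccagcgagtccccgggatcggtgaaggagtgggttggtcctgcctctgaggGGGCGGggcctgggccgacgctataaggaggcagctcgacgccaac
The next shows the element of Ccng1 in capitals within 60 bases, for comparison with that of Cdkn1a.
Ccng1 (chr11:40755442-40755501, - strand): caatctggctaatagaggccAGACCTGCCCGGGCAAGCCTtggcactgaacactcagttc
For Mdm2 and Bax, 40 bases are given around the p53 half-site (capitals) in the promoter window of each.
Mdm2 (chr10:117710920-117710959, - strand): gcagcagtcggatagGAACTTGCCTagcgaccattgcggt
Bax (chr7:45467075-45467114, - strand): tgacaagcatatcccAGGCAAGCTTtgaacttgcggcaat
The last is the 250 bases before the start of Btg2, which had no p53 half-site; capitals mark GC boxes and CCAAT boxes (CCAAT, either strand).
Btg2 (chr1:134079156-134079405, - strand): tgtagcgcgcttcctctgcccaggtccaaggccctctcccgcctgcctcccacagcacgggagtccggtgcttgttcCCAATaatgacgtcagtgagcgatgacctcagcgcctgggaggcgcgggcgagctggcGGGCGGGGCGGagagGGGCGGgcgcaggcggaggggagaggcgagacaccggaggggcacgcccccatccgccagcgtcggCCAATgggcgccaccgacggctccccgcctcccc
These positions are in GRCm38.p6 and cannot be set against the mm9 positions of the sites below.

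At 5 of the 6 genes a DNaseI site lay at the start of the gene span, and at Cdkn1a it lay inside the span. The start is that of the span in the rule, and a second RefSeq start of Cdkn1a, given below, was not used. If that start has the same offset in mm9, which was not tested, the Cdkn1a site is a start site too. A start site is one that overlaps the start extended by 1 kb on either side. Mdm2, Ccng1, Bax, Pmaip1 and Btg2 each had exactly 1. No further site lay inside the spans of these 5 genes. The only site inside a span that was not a start site was that of Cdkn1a. The remaining members were 19 sites in upstream flanks and 21 in downstream flanks. The start windows could be narrowed to 0.5 kb or widened to 2 kb without a change in the count of 5. The Cdkn1a site, which begins 2321 bases into the gene, lay just outside the wider window. The gene spans of the rule are rounded: they differ from the RefSeq gene lengths by 7 bases for Cdkn1a, 10 for Btg2, 43 for Ccng1, 117 for Mdm2, 546 for Pmaip1 and 792 for Bax. Both ends of a span could be shifted together, so these differences of length do not bound the error of a start. Distances from a start are therefore approximate, also where the lengths nearly match. Exon borders in mm9 were not used here, so sites inside a gene are placed by their distance from its start and not assigned to a first intron.

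**Figure D1:**
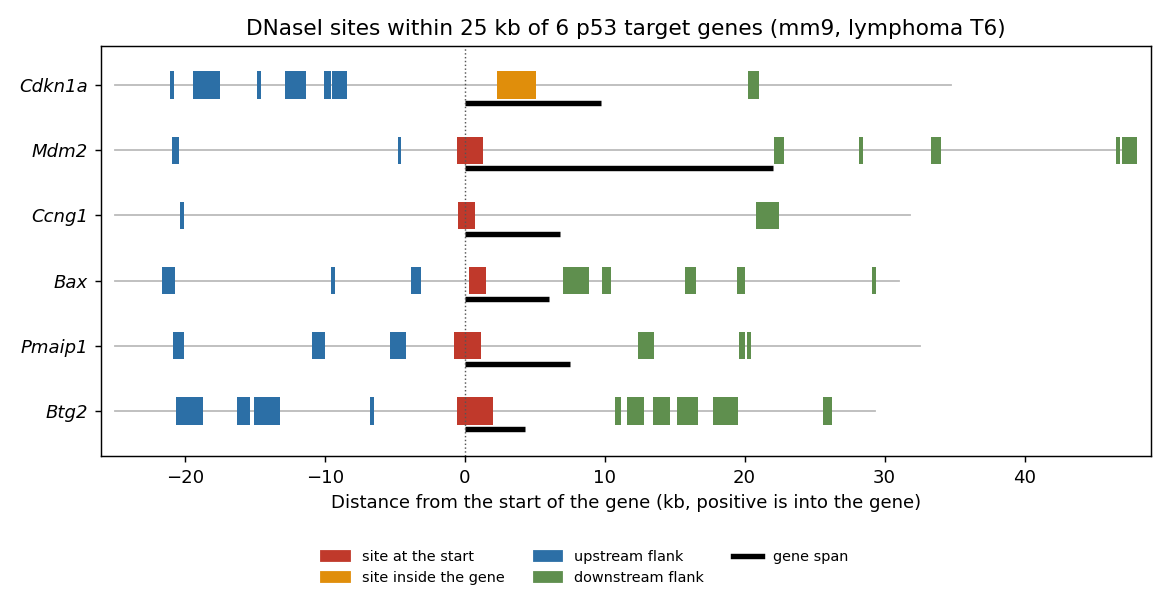
DNaseI sites (boxes) within 25 kb of each gene, by distance in kb from the start of the gene along its direction of transcription; black bars are the gene spans and grey lines the windows. Of the 46 sites, 5 lie at a start, 1 inside Cdkn1a and the others in the flanks.

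Cdkn1a encodes p21, an inhibitor of cyclin-dependent kinases that arrests the cell cycle and is a classical p53 target. In mm9 it spans chr17:29227931-29237667 on the + strand, and 8 sites lay within 25 kb. Its internal site covered chr17:29230252-29233015, from 2321 to 5084 bases into the gene. At 2764 bp it was the widest of the 46 members, and 0.965% of the whole list was as wide or wider. No site overlapped the 10749 bases before it, a gap that holds the start of the gene span. RefSeq has a second start of Cdkn1a, 2790 bases downstream of the first in GRCm38.p6, where the gene is 9744 bases long against 9737 in the rule. If the offset is the same in mm9, which was not tested, it falls within the listed site. The start of the rule's span, taken as the upstream start, had no listed site within 2 kb.

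The sequences of these 2 starts differ as well. Before the upstream start, from 51 to 32 bases ahead of it, stand the 20 letters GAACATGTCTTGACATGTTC. The first 10, GAACATGTCT, match the p53 half-site exactly, and the last 10, TGACATGTTC, are off by 1 letter. Another exact half-site, not in capitals above, begins 73 bases before this start. A pair of exact half-sites 0 to 13 bases apart was in this window alone among the 6 and in 24 of all 32851 RefSeq promoter windows of 300 bases (0.0731%). The downstream window holds no half-site, and its best 20 unbroken letters are 5 off. The upstream window holds 2 CG steps (a C followed by a G), and the downstream window 23, against a median of 7 over all windows (quartiles 3 and 20). So at Cdkn1a the p53 element stood before a CG-poor start. If this is the start of the rule's span, it had no listed site within 2 kb. The CG-rich start, whose offset matches the listed site, had no such element in its own window of 300 bases. That start lies 2790 bases downstream of the first, so the element is upstream of both. Which start it serves was not tested. A start without a listed site is not shown to be closed, since the threshold of the list and the depth are unknown.

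**Figure D2:**
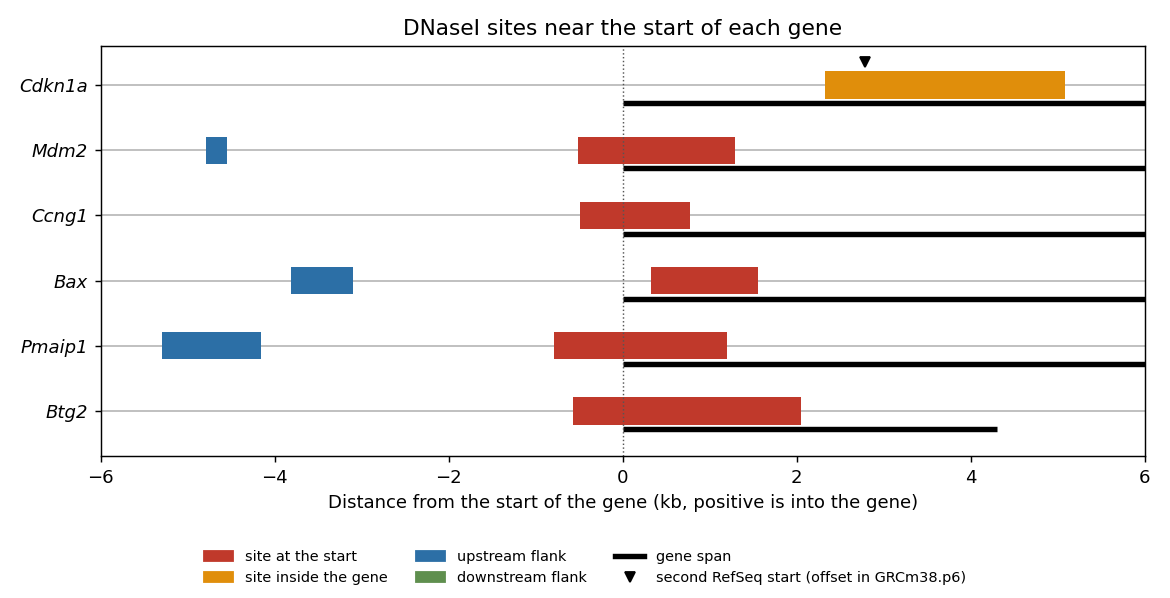
DNaseI sites (boxes) within 6 kb of the start of each gene, in kb from the start; black bars are the gene spans, and the triangle marks the second RefSeq start of Cdkn1a, 2790 bases from the first in GRCm38.p6. The site of Cdkn1a begins 2321 bases into the gene, and the sites of Mdm2, Ccng1, Pmaip1 and Btg2 span the start.

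The flank of Cdkn1a was one-sided. Upstream lay 6 sites, between 21017 and 8429 bases before the start, and downstream 1 site of 806 bp, 10484 bases past the end of the gene. The widest upstream sites measured 1892 bp (chr17:29208547-29210438) and 1435 bp (chr17:29215132-29216566). The others were 1030, 529, 313 and 283 bp wide. In the gene table the next gene upstream is Trp53cor1, also known as lincRNA-p21, a long noncoding RNA that p53 induces in mouse cells. Which of the upstream sites belong to Trp53cor1 was not tested.

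Mdm2 encodes the ubiquitin ligase that marks p53 for degradation, and p53 in turn induces Mdm2, which closes a feedback loop. Its p53-driven promoter is known to lie in the first intron. Of the 8 sites around it, the start site covered chr10:117146607-117148413, from 513 bases before the start to 1293 bases into the gene. It was 1807 bp wide, the widest within 25 kb of this gene. No other site followed for 20775 bases, nearly the whole length of the gene. The next site, of 720 bp (chr10:117125112-117125831), began 69 bases past the end of the rule's span. That span is rounded, so whether the site lies inside the gene could not be told. Upstream, a site of 249 bp, the narrowest width in the list, lay 4546 bases before the start, and one of 540 bp lay 20376 bases before it. The remaining downstream sites were 259, 715, 307 and 1093 bp wide, and the last straddled the 25-kb limit, with 61 of its bases inside. The RefSeq window of Mdm2 had 35 CG steps, the most of the 6 member windows, a CCAAT box 72 bases before the start and GC boxes at 104 and 88 bases. Its half-site, GAACTTGCCT, began 186 bases before the start, and the best 20 unbroken letters in the window were 5 off the full element. The window ends 50 bases after the start, so sequence farther into the gene was not searched for the element.

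Ccng1 encodes cyclin G1, which p53 induces and which takes part in the control of p53 through Mdm2. It had the fewest sites, 3 (0.619 to 8.77). Its start site of 1260 bp covered chr11:40568031-40569290, from 490 bases before the start to 769 bases into the gene. The nearest sites were 19527 bases upstream of it (346 bp wide) and 20043 bases downstream (1644 bp wide, chr11:40546344-40547987). In the gene table, Nudcd2 is the next gene downstream. From 195 to 176 bases before its RefSeq start stands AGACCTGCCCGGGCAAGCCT, of which the first 10 letters are 1 off the half-site and the last 10 match it exactly. This distance is smaller than the 490 bases by which the listed site reached upstream of the rule's start. The span of this gene differs from the RefSeq length by 43 bases, which does not bound a shift of that start. The element of Cdkn1a begins 51 bases before its upstream RefSeq start, and the nearest listed site began 2321 bases beyond the rule's start. These are distances from a start in different builds, set side by side; neither element was placed in mm9, so its overlap with a site was not tested.

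Bax and Pmaip1 promote apoptosis: Bax permeabilises the outer mitochondrial membrane, and Pmaip1 encodes Noxa, a BH3-only protein that blocks Mcl1. Bax had 9 sites in a gene-dense stretch, with Ftl1 and Gys1 next downstream and Dhdh and Tulp2 next upstream. Its start site of 1225 bp, chr7:52721446-52722670, began 330 bases inside the rule's start, less than the 792 bases by which that span exceeds the RefSeq length. Whether it covers the start itself cannot be told apart from this rounding. The widest site near Bax was another, of 1863 bp (chr7:52714085-52715947), 1053 bases past the end of the gene, on the side of Ftl1. Upstream sites measured 707, 282 and 925 bp. The Bax window had 19 CG steps, an E-box (CACGTG) 9 bases before the start, the letters that Myc and Max are known to bind, and a second E-box within the first 50 transcribed bases. Its half-site, AGGCAAGCTT, began 201 bases before the start, and the best 20 unbroken letters in the window were 3 off. Pairs with bases between the half-sites were searched only where both matched exactly. The letters GAACTTGCGG shortly after this half-site were therefore not scored together with it. Sequence farther into this gene was not searched either.

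Pmaip1 had 7 sites, of which the start site, chr18:66617212-66619202, was the widest at 1991 bp. It reached from 788 bases before the rounded start to 1202 bases into the gene. Upstream followed sites of 1140, 906 and 776 bp, at 4161, 9993 and 20036 bases before the start. Downstream lay sites of 1145, 468 and 298 bp, the first 4913 bases past the end of the gene. In the gene table, Ccbe1 is the next gene upstream and the noncoding Gm9926 the next downstream. Sequence of Pmaip1 was not used here.

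Btg2 encodes an antiproliferative protein that p53 induces and that is also an early response gene. It had the most sites, 11 (5.49 to 19.7), which covered 26.6% of its window. Its start site of 2623 bp, chr1:135973948-135976570, ran from 570 bases before the start to 2052 bases into a gene of 4301 bases. Only 1.26% of the list was as wide or wider. Downstream, 5 sites of 406, 1204, 1197, 1508 and 1763 bp stood close together between 6456 bases past the gene's end and chr1:135956474, and a sixth of 708 bp lay farther off. Upstream stood sites of 329, 1877, 971 and 1878 bp. The long noncoding genes Gm31974 and Gm19497 are its nearest neighbours in the gene table. Its RefSeq window had 32 CG steps, 3 GC boxes and 2 CCAAT boxes, and no p53 half-site.

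The 6 sites at or nearest the starts were wide as a group. Their widths ran from 1225 to 2764 bp with a median of 1899 bp, against 663 bp in the whole list (95% interval 658 to 668). All 6 exceeded the upper quartile of the list, 1063 bp, and 4 exceeded 1500 bp, as 11.4% of the list did. In 4 windows the start or internal site was the widest, with Ccng1 and Bax as the exceptions. The 40 other members had a median of 740 bp (540 to 1030). This interval included the median of the list, which does not show the widths to be alike. Of these 40, 10 (25%) were narrower than 400 bp and 7 (17.5%) wider than 1500 bp, against 30.5% and 11.4% of the whole list. Upstream flank sites had a median of 776 bp (329 to 1140) and downstream flank sites 720 bp (468 to 1197). These intervals are wide and overlap, and a difference between the flanks was not tested. Start sites of other genes were not analysed here, and the widths are therefore not shown to be particular to p53 targets.

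**Figure D3:**
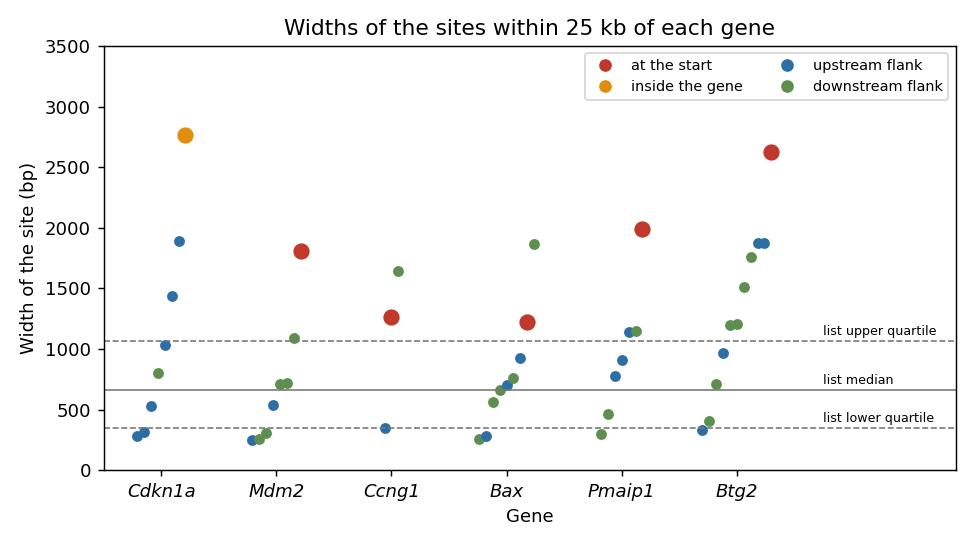
Width in bp of each of the 46 sites, by gene and place; large points are the sites at or nearest the start, and horizontal lines are the median and quartiles of all 53593 sites. The large points lie between 1225 and 2764 bp, all above the upper quartile of 1063 bp.

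Together the 6 windows held 1.29 sites per 10 kb, 5.88 times the autosomal average of 0.22 (interval of the ratio 4.30 to 7.84, with the average taken as fixed). Sites covered 12.7% of the windows and 1.77% of the autosomes between their first and last sites. Sites are unevenly spread over the genome, so the surroundings of other sites give a closer comparison. The median site of the list had 4 other sites within 25 kb (quartiles 2 and 6). The start site of Btg2 had 10, and 91.7% of the list had fewer. Bax and the internal site of Cdkn1a had 7 each, and Pmaip1 had 6. Mdm2 with 3 and Ccng1 with 2 stood below the median, and 78.8% of the list had at least as many neighbours as Ccng1. The genes thus fell on both sides of the list's median. The intervals of their site counts overlap, those of Btg2 and Ccng1 included, but they treat clustered sites as independent. The windows also differ in length, from 54.3 kb at Btg2 to 72.0 kb at Mdm2. No difference between genes was tested.

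**Figure D4:**
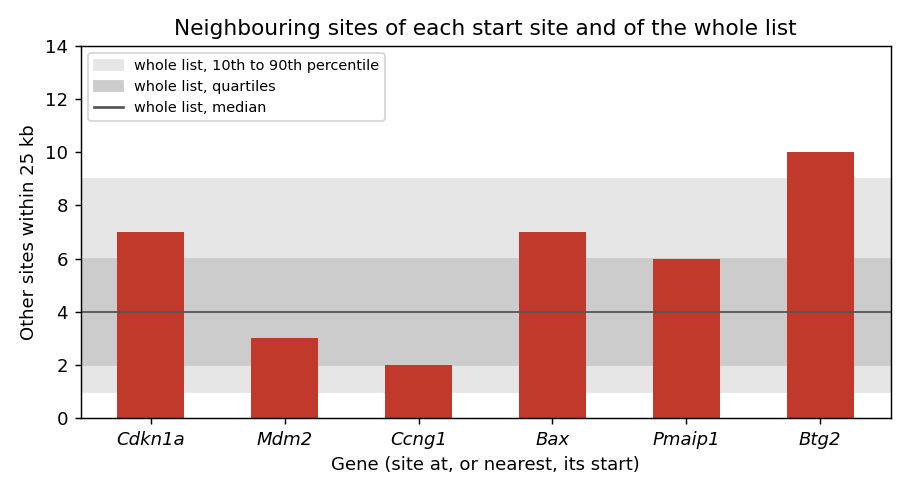
Number of other sites within 25 kb of the site at, or nearest, the start of each gene (bars), with the median, quartiles and 10th to 90th percentiles over the whole list (line and bands). Ccng1 has 2 neighbours, Btg2 has 10 and the median site of the list has 4.

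Just inside the limit of 25 kb lay an Mdm2 site at 24.5 kb and a Bax site at 23.1 kb. Another Mdm2 site, of 1093 bp, began at 24.9 kb and lay mostly outside the limit, with 61 bases inside. Just outside were the Btg2 sites at 25.8 and 25.9 kb and a Bax site at 26.3 kb.

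In the RefSeq windows, from 250 bases before to 50 after a start, 5 of the 6 genes were present, with 6 windows. A p53 half-site was found in 4 of these 6 windows, belonging to 4 of the 5 genes, and in 8.36% of all 32851 windows. With the core CATG, it was found only in the upstream window of Cdkn1a among the 6, and in 1.93% of all windows. The full element of 20 letters with at most 1 letter off was in 2 of the 6, those of Cdkn1a upstream and Ccng1, and in 29 of all windows (0.0883%). Half-sites do not depend on strand, since the motif is its own reverse complement. As the other genes of the pathway, 20 further targets or regulators were listed, of which 15 had windows. A half-site was found in 7 of these 15: Aen, Ei24, Gadd45a, Polk, Ppm1d, Sesn1 and Trp53. None of their 21 windows held the full element with at most 1 letter off. In all windows this element was scored with no bases between its half-sites. Spaced pairs were searched only as exact half-sites 0 to 13 bases apart, so a spaced pair with a letter off would be missed. Sequence outside these windows, introns included, was not searched, so a window without the element does not show that the gene lacks it. GC boxes were in 4 of the 6 member windows (35.7% of all), CCAAT boxes in 3 (37.4%), the E-box in 1 (7.15%) and a TATA box (TATAAA, either strand) in 0 (13.6%). These are counts of letters and not of bound sites, and the 6 genes were chosen because p53 is known to act on them.

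**Figure D5:**
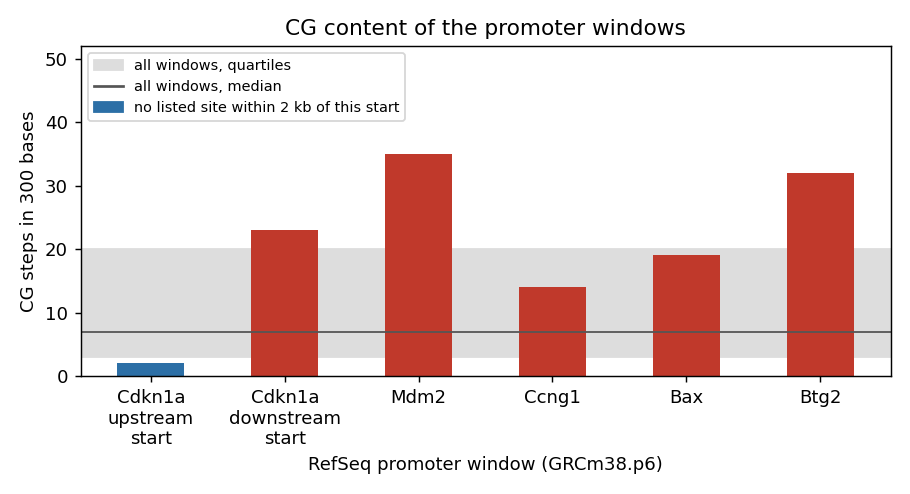
Number of CG steps in each RefSeq promoter window of 300 bases (bars), with the median and quartiles of all 32851 windows (line and band). The upstream start of Cdkn1a has 2, and the other windows have 14 to 35. Taken as the start of the rule's span, this upstream start has no listed site within 2 kb.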

How the data were processed

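The DNaseI list gives chromosome, start and end in mm9, in 3 columns with no header; its other values, such as a score, are not given, and the deposited positions were used as they stand. Per the submitters' processing notes, the authors used BWA 0.6.2 and SAMtools. Which peak caller and threshold were applied, and whether the input entered, is not stated in the sources used here. Depth is unknown. Starts were taken as counted from 0 and are printed counted from 1. Gene spans came from the rule that defines the members, and strands from the RefSeq promoter table (GRCm38.p6), except that of Pmaip1, which is general knowledge. A site belonged to a window if it overlapped it by 1 base. Motifs were searched on both strands. The members, the motif list and the other pathway genes were chosen with earlier results of these data known; all 6 genes are named. The full p53 element, CG steps, the share of the list as wide, and neighbour counts were added after seeing the data. Site assignment was tested on simulated data. Alternatives were windows of 10 and 50 kb, other start windows, wider sites only, joined sites, sites wholly inside, and same-chromosome background. Calculations ran in Python 3.11.15 with scipy 1.17.1, numpy 2.4.6 and pandas 2.3.3, and plots in matplotlib 3.10.9.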

Additional observations from a re-analysis of the deposited data

How the results depend on the processing

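Of 26 recomputed values, 20 stayed within counting error (for counts, within a factor of 1.5) of what is reported above, and 6 moved by more. All 6 follow from the alternative itself. A window of 10 kb left 23 sites and 23250 covered bases, and one of 50 kb took in 77 sites and 68780 covered bases. Taking only sites wider than the median of the list left 30 sites, whose median was 1200.5 bp. The 5 genes with a start site and the 1 site inside a gene did not change under any alternative run for them. The density relative to the autosomes ran from 5.34 to 7.65 times, and so stayed above the autosomal average under every alternative. None of them used windows around other genes as the background, so this excess is not shown to be particular to these genes. By neighbour counts, given above, the genes fell on both sides of the list's median. No paired analysis was possible because there was 1 library. The list holds no signal, so its threshold could not be varied, and unlisted regions such as the start of the Cdkn1a span cannot be graded.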
